A study of Caenorhabditis elegans with 11 samples.

Results

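The fatty acid desaturases and elongases of *Caenorhabditis elegans* were followed together with the transcription factor *sbp-1*. They were chosen by gene symbol and without a cutoff on a measured value, though with earlier results of these data known. The set holds the desaturases *fat-1* to *fat-7*, the elongases *elo-1* and *elo-2*, and *sbp-1*, which make 10 of the 46756 genes counted. All 10 were found and passed the filter on low counts (at least 10 counts in at least 2 libraries) in every comparison. Of these, 7 lie on chromosome IV, 2 on V (*fat-5* and *fat-7*) and 1 on III (*sbp-1*).

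Wild-type N2 Bristol worms grew at 20 °C on *E. coli* OP50 and were moved, at day 1 of adulthood, to *E. coli* HT115 for 96 h. These bacteria carried the empty vector L4440 (control) or made double-stranded RNA to *xpo-1* (*xpo-1* RNAi), which encodes the nuclear export receptor exportin 1. Animals were collected at day 5, after daily transfers in M9 buffer. All groups thus share strain, age, temperature and bacterial host. Adults were parted from progeny by gravity sedimentation, and how complete this was is not given. Every library came from whole animals, so that fewer cells of a type and less RNA per cell cannot be told apart. From each lysate, total RNA was set aside and the remainder was run through a sucrose gradient to collect monosomes (mRNA with a single ribosome) and polysomes (mRNA with several). There were 2 libraries each of control total, *xpo-1* RNAi total, control monosome, control polysome and *xpo-1* RNAi polysome RNA, and 1 of *xpo-1* RNAi monosome RNA.

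Desaturases place double bonds in the acyl chains of fats, and elongases lengthen those chains. In *C. elegans*, *fat-5*, *fat-6* and *fat-7* place the first double bond and yield monounsaturated fatty acids, after which *fat-2*, *fat-1*, *fat-3* and *fat-4* add further bonds to build polyunsaturated fatty acids without a dietary source. SBP-1, the worm homolog of the mammalian SREBP factors, activates genes of fatty acid synthesis and desaturation, and much of this activity lies in the intestine.

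Levels are given as CPM, counts scaled to library size with TMM factors over all 11 libraries, and as CPM per kb of exons where genes are compared with each other. *xpo-1* itself stood at 312 and 254 CPM in the control total libraries and at 36.5 and 38.3 CPM after RNAi. In polysome RNA its level was 199 and 126 CPM in control against 21.8 CPM in each *xpo-1* RNAi library, so the groups were far apart in the direction of their labels. Library totals ran from 15589628 to 21828657 counts. The log2 ratio between replicates, over 15378 genes, had an SD of 0.47 to 0.52 in the 3 control groups and of 0.24 to 0.25 in the *xpo-1* RNAi groups. All 10 intestinal markers were detected in every library. With *xpo-1* RNAi their summed level was 4070 to 4870 CPM in total RNA against 5250 to 6500 CPM in control, with 1 of 10 called higher (*ges-1*) and 5 called lower. Beside this and the total RNA marker counts that follow, 12.0% of all genes tested were called higher and 16.9% lower. Cuticle and hypodermis markers fell in 7 of 7 genes, from a sum of 2060 to 3640 CPM in control to 438 to 503 CPM. Sperm markers were at 35.6 to 144 CPM in control and 1.64 to 2.51 CPM with *xpo-1* RNAi (4 of 5 genes lower), and embryo markers at 16.9 to 21.8 CPM and 5.26 to 6.22 CPM (4 of 6 tested genes lower). In polysome RNA the intestinal sum was 4370 to 5250 CPM in control and 3040 to 3630 CPM with *xpo-1* RNAi, the cuticle sum 1790 to 2220 and 260 to 273 CPM, and the sperm sum 56.8 to 247 and 1.13 to 1.96 CPM. Muscle markers were lower in 3 of 4 genes in total RNA, and their polysome sum was 667 to 846 CPM in control and 684 to 786 CPM after RNAi. The germline sum was 4580 to 5270 CPM in control total RNA and 4210 to 4450 CPM after RNAi. In polysome RNA it was 1870 to 2710 CPM in control and 2630 to 2890 CPM after RNAi. Of 8 germline markers, 1 was called higher (*glp-1*) and 0 lower in each of these kinds. The part of these marker shifts in the results that follow was not tested.

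In control total RNA, *fat-2*, which makes linoleic acid from oleic acid, was the most abundant of the 10 at a mean of 449 CPM per kb. It was followed by the omega-3 desaturase *fat-1* at 328, *elo-1* at 262 and the stearoyl-CoA desaturase *fat-6* at 185 CPM per kb. *fat-4* (108) and *elo-2* (101) overlapped between their libraries, and so did *fat-5* (73.4) and *fat-3* (71.7). The lowest were *fat-7* at 16.5 and *sbp-1* at 13.2 CPM per kb. In control polysome RNA the order was led by *elo-1* at 231 and *fat-6* at 179 CPM per kb, with *fat-1* at 118 and *elo-2*, *fat-2* and *fat-5* overlapping between 95.1 and 103. In *xpo-1* RNAi polysomes the top places were held by *fat-5* at 306 and *fat-6* at 282 CPM per kb, whose libraries overlapped, ahead of *fat-2* at 121. At the foot of that order *fat-7* stood at 20.4 and *sbp-1* at 15.7 CPM per kb.

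**Figure D1:**
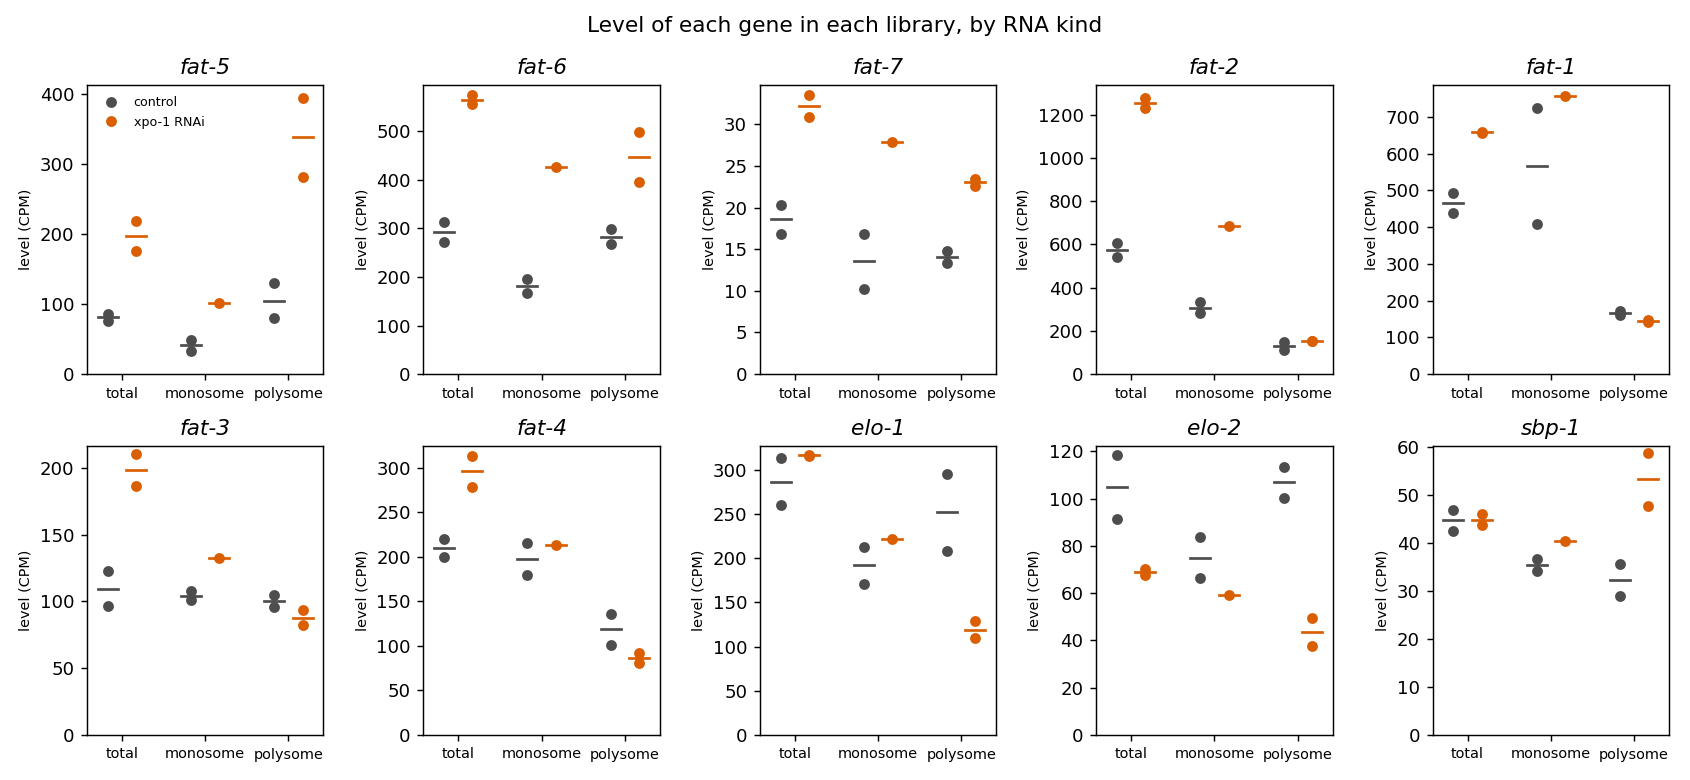
Level of each of the 10 genes in each library (CPM, linear axes from 0), by RNA kind. Points are libraries and horizontal lines are group means. The *xpo-1* RNAi points lie above the control points in all 3 RNA kinds for *fat-5*, *fat-6* and *fat-7*, whereas for *fat-1*, *fat-3*, *fat-4* and *elo-1* they lie above control in total RNA and below it in polysome RNA.

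The monounsaturated fatty acid desaturases *fat-5*, *fat-6* and *fat-7* were each higher with *xpo-1* RNAi in total RNA and in polysome RNA. *fat-5* (WBGene00001397, V:17725004-17726818, plus strand, WBcel235), which acts on palmitic acid, had 85.8 and 76.4 CPM in the control total libraries and 218 and 176 CPM in the *xpo-1* RNAi libraries. In polysome RNA it had 129.5 and 80.6 CPM in control and 281 and 395 CPM with *xpo-1* RNAi. The groups did not overlap in either kind, and the control polysome replicates were further apart for *fat-5* than for any other member. The log2 fold change was 1.26 ± 0.17 (SE) in total RNA (edgeR adjusted p = 0.000738) and 1.62 ± 0.28 in polysome RNA (edgeR adjusted p = 0.00266), the most positive value among the 10 in each kind. *fat-5* was called higher in both kinds under every setting tried.

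*fat-6* (WBGene00001398, IV:11913691-11915796, minus strand) and *fat-7* (WBGene00001399, V:7151353-7153146, minus strand) encode closely related stearoyl-CoA desaturases that make oleic acid. *fat-6* measured 272 and 314 CPM in control total RNA against 575 and 556 CPM with *xpo-1* RNAi, a log2 fold change of 0.93 ± 0.17 (edgeR adjusted p = 0.00342). Its polysome levels were 267.5 and 298 CPM in control and 395 and 499 CPM with *xpo-1* RNAi, a log2 fold change of 0.59 ± 0.20 (edgeR adjusted p = 0.0457). The *xpo-1* RNAi libraries of *fat-6* thus exceeded every control library in both kinds. *fat-7* was far less abundant, at 20.3 and 16.8 CPM in control total RNA and 33.6 and 30.8 CPM with *xpo-1* RNAi, a log2 fold change of 0.77 ± 0.20 (edgeR adjusted p = 0.0145). In polysome RNA *fat-7* had 13.4 and 14.8 CPM in control and 22.6 and 23.4 CPM with *xpo-1* RNAi, a log2 fold change of 0.64 ± 0.21 (edgeR adjusted p = 0.0384). Per kb of exons, *fat-6* exceeded *fat-7* by 8.28 to 15.2 times in the 11 libraries. How reads shared by this pair of paralogs were assigned is not given in the sources used here, so the *fat-7* values in particular may hold some *fat-6* reads. The *fat-6* and *fat-7* polysome calls lie close to the threshold of 0.05, and both were lost without either *xpo-1* RNAi polysome library, without control polysome replicate 1 and with a filter of 10 counts in every library. DESeq2 did not call *fat-7* in polysome RNA, edgeR with a replicate block did not call *fat-6*, and the *fat-7* call in total RNA was lost without either *xpo-1* RNAi total library.

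The desaturases of polyunsaturated fatty acid synthesis differed from this pattern in polysome RNA. *fat-2* (WBGene00001394, IV:13323850-13326394, plus strand) rose in total RNA, from 606 and 543 CPM to 1228 and 1279 CPM, a log2 fold change of 1.11 ± 0.18 (edgeR adjusted p = 0.00178). In polysome RNA the same gene had 110.1 and 147 CPM in control and 153 and 155 CPM with *xpo-1* RNAi, and the log2 difference of 0.19 ± 0.22 did not pass the test (edgeR adjusted p = 0.528). The *fat-2* groups were thus far apart in total RNA and nearly met in polysomes. *fat-3* (WBGene00001395, IV:9803023-9806119, plus strand), a desaturase that begins the path from linoleic to arachidonic acid, rose in total RNA from 123 and 96.3 CPM to 186 and 210.2 CPM, by 0.84 ± 0.18 on the log2 scale (edgeR adjusted p = 0.00601). Its polysome levels were 96.0 and 105 CPM in control and 82.2 and 93.3 CPM with *xpo-1* RNAi, with a log2 difference of -0.27 ± 0.20 (edgeR adjusted p = 0.327).

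*fat-1* and *fat-4* moved by smaller amounts and passed the test in neither kind. *fat-1* (WBGene00001393, IV:13315644-13318811, plus strand), the omega-3 desaturase, had 493 and 437 CPM in control total RNA and 660.1 and 657 CPM with *xpo-1* RNAi (log2 difference 0.48 ± 0.17, edgeR adjusted p = 0.059). Its polysome libraries held 161 and 173 CPM in control and 142 and 146 CPM with *xpo-1* RNAi (log2 difference -0.28 ± 0.19, edgeR adjusted p = 0.267). The *fat-1* groups did not overlap in either kind, with *xpo-1* RNAi above control in total RNA and below it in polysomes. *fat-4* (WBGene00001396, IV:9799429-9802638, plus strand), the last desaturase on the way to arachidonic acid, had 219.6 and 200.4 CPM in control total RNA against 279 and 313 CPM with *xpo-1* RNAi (log2 difference 0.48 ± 0.17, edgeR adjusted p = 0.0524). In polysomes *fat-4* stood at 101 and 136 CPM in control and at 80.8 and 92.3 CPM with *xpo-1* RNAi (log2 difference -0.52 ± 0.23, edgeR adjusted p = 0.1). *fat-4* also showed *xpo-1* RNAi above control in total RNA and below it in polysomes. These genes form neighbouring pairs on chromosome IV, *fat-4* ending 384 bases before *fat-3* and *fat-1* ending 5038 bases before *fat-2*, all on the plus strand.

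The elongases had lower polysome levels with *xpo-1* RNAi. *elo-1* (WBGene00001239, IV:9526359-9528350, plus strand), which lengthens polyunsaturated fatty acids between the steps of *fat-3* and *fat-4*, had 259.8 and 313 CPM in control total RNA and 317 and 315 CPM with *xpo-1* RNAi, with a log2 difference of 0.12 ± 0.17 (edgeR adjusted p = 0.635). Its polysome levels fell from 208.5 and 296 CPM to 109 and 129 CPM, a log2 fold change of -1.15 ± 0.24 (edgeR adjusted p = 0.00584). Every *xpo-1* RNAi polysome library thus held less *elo-1* than every control one, while the total RNA levels lay close together. *elo-2* (WBGene00001240, IV:17466060-17467408, minus strand), which extends palmitic acid, was the sole member lower in both kinds. In total RNA its levels were 91.2 and 118 CPM in control and 70.3 and 67.7 CPM with *xpo-1* RNAi, a log2 fold change of -0.62 ± 0.18 (edgeR adjusted p = 0.024), a call that was lost without control total replicate 2 and without either *xpo-1* RNAi total library. In polysomes *elo-2* fell from 100.4 and 113.5 CPM to 37.7 and 49.4 CPM, by -1.37 ± 0.23 (edgeR adjusted p = 0.0023).

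*sbp-1* (WBGene00004735, III:11428367-11442566, minus strand) had the same mean in both total RNA groups, with 42.6 and 46.9 CPM in control and 43.7 and 46.0 CPM with *xpo-1* RNAi, and the libraries overlapped (log2 difference -0.02 ± 0.17, edgeR adjusted p = 0.947). In polysome RNA it was higher with *xpo-1* RNAi, at 47.8 and 58.8 CPM against 35.6 and 28.9 CPM in control, a log2 fold change of 0.66 ± 0.22 (edgeR adjusted p = 0.0441). This call was lost without control polysome replicate 2 and without either *xpo-1* RNAi polysome library. Exons of *sbp-1* share 48 bases with *idpc-1* on the other strand, which held 3148 counts over all libraries against 8629 for *sbp-1*, and the use of strand in counting is not given in the sources used here. *fat-5* shares 20 bases with *twk-42* (905 against 30653 counts) and *fat-6* shares 30 bases with *ZK822.9* (78 against 74071 counts).

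In total RNA 5 of the 10 genes were called higher (*fat-2*, *fat-3*, *fat-5*, *fat-6* and *fat-7*) and 1 lower (*elo-2*), where calls by edgeR required a fold change above 1.5 together with an adjusted p below 0.05. Of all 13795 genes tested, 12.0% were called higher and 16.9% lower, and 28.9% in either direction. The members' median log2 fold change was 0.63, beside 0.01 over all genes. In polysome RNA 4 were called higher (*fat-5*, *fat-6*, *fat-7* and *sbp-1*) and 2 lower (*elo-1* and *elo-2*), beside 15.5% and 22.4% of 13940 genes and 37.9% in either direction, and the members' median was -0.04 beside -0.01. The total RNA count thus leaned to higher levels, and the polysome count was split between the monounsaturated desaturases with *sbp-1* and the elongases. Without *xpo-1* RNAi total replicate 2, 3 members were called in total RNA (*fat-2*, *fat-5* and *fat-6*), when 10.3% of all genes were called. Without *xpo-1* RNAi polysome replicate 1, *fat-5* was the 1 member called in polysome RNA (16.0% of all genes), and without replicate 2 there were 3 (*fat-5*, *elo-1* and *elo-2*, 17.8%). With scaling by total counts alone, which put the median of all genes at 0.30 in total RNA and 0.40 in polysome RNA, *fat-1* and *fat-4* were called higher and *elo-2* lost its call in total RNA, *fat-2* was called higher in polysome RNA, and the polysome differences of *fat-1* and *fat-3* became 0.12 and 0.14. Relative to that median, no member moved by more than 0.0094 between the scalings.

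**Figure D2:**
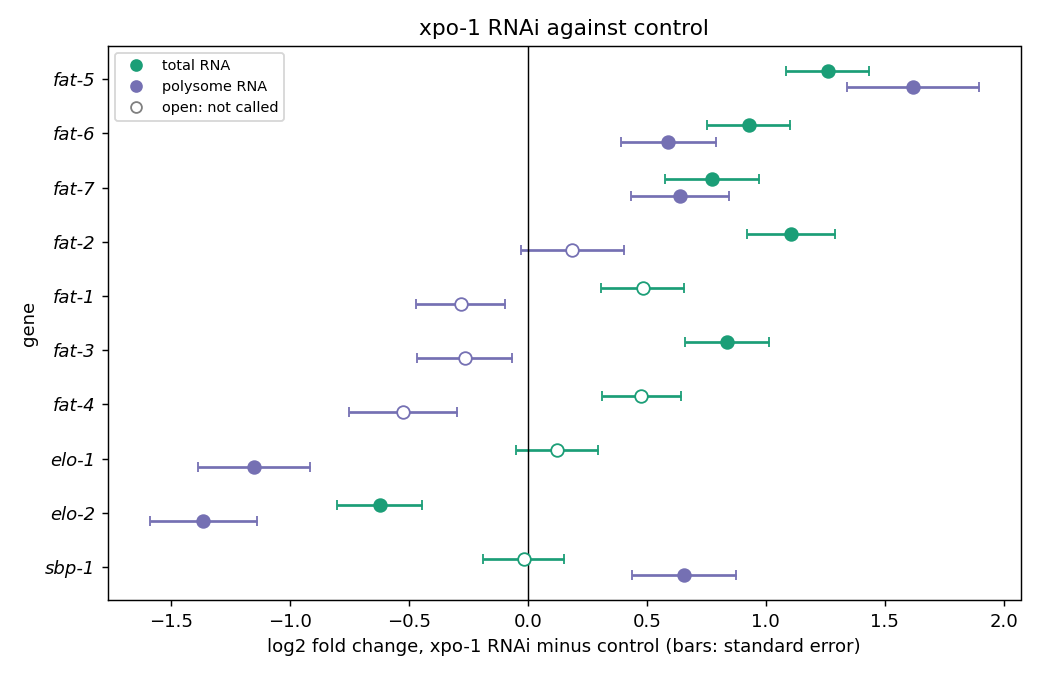
Log2 fold change of each gene with *xpo-1* RNAi against control, in total RNA (green) and polysome RNA (purple), from edgeR, with bars of 1 standard error. Filled points passed the test and open points did not. *fat-5*, *fat-6* and *fat-7* are to the right of 0 in both kinds, *elo-2* is to the left in both, and *fat-2* and *fat-3* are filled in total RNA alone.

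The groups of desaturases were also compared as sums of CPM per kb. *fat-5*, *fat-6* and *fat-7* together had 268 and 282 CPM per kb in control total RNA and 591 and 538 with *xpo-1* RNAi. In polysomes the same sum was 298 and 274 CPM per kb in control and 525 and 694 with *xpo-1* RNAi, so that it stood at a similar level in polysome and total RNA. The sum of *fat-1* to *fat-4* was 1015 and 899.8 CPM per kb in control total RNA and 1692 and 1763 with *xpo-1* RNAi. In polysomes that sum was 314 and 376 CPM per kb in control and 315 and 333 with *xpo-1* RNAi, which lay within the control range. The ratio of the monounsaturated to the polyunsaturated sum was 0.264 and 0.314 in control total RNA and 0.349 and 0.305 with *xpo-1* RNAi, and these overlapped. In polysome RNA the ratio was 0.948 and 0.730 in control and 1.66 and 2.08 with *xpo-1* RNAi, and these did not. Within the monounsaturated sum, *fat-5* made up 24.5 to 33.5% in the 4 total RNA libraries, 26.6 and 39.3% in control polysomes and 48.6 and 51.5% in *xpo-1* RNAi polysomes. No test was made on these sums, whose members were chosen with earlier results known.

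**Figure D3:**
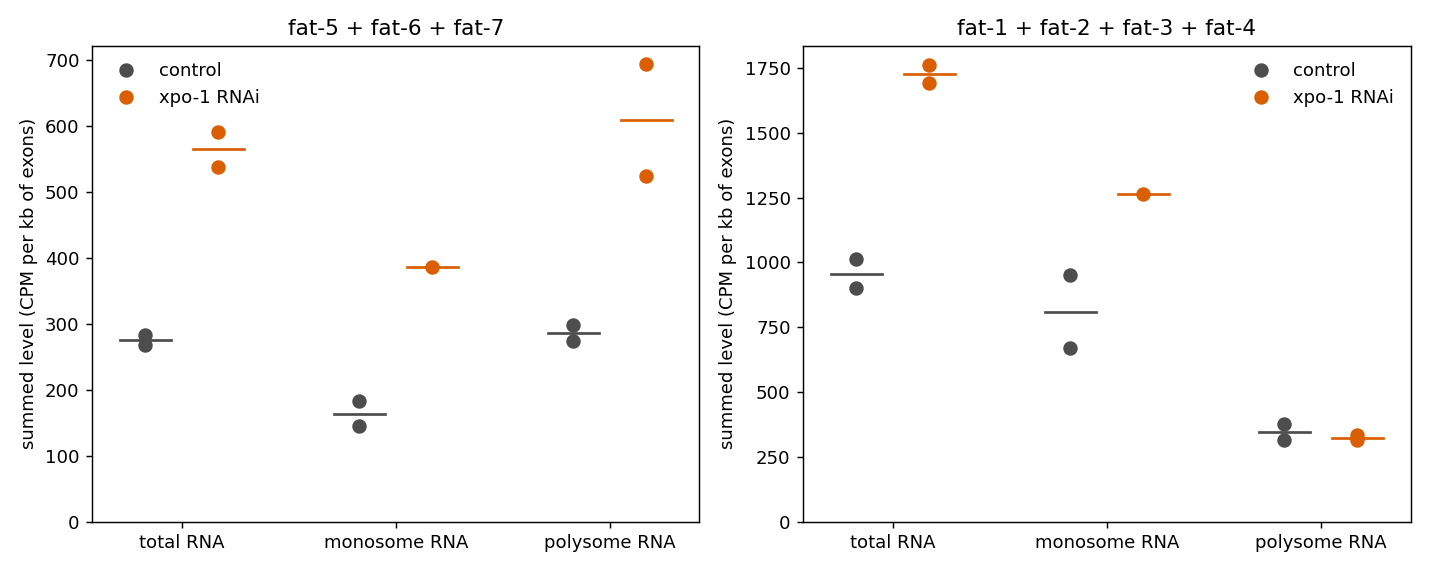
Summed level (CPM per kb of exons, linear axes from 0) of *fat-5*, *fat-6* and *fat-7* (left) and of *fat-1* to *fat-4* (right), by RNA kind. Points are libraries and lines are group means. In polysome RNA the left sum is 525 and 694 with *xpo-1* RNAi against 298 and 274 in control, and the right sum overlaps between the groups.

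Polysome RNA was next set against total RNA within each treatment, in a single fit over the 8 libraries of these kinds. Total RNA and fractions came from the same lysates, but the labels do not say which libraries belong together, so this fit did not pair them. With same-numbered libraries paired in a block, the same members were called in both contrasts. Each value describes a gene's share of the RNA sequenced from a fraction and not the amount of polysomes. In control worms *fat-2*, *fat-1* and *fat-4* had lower shares in polysome than in total RNA, by log2 differences of -2.16 ± 0.19, -1.49 ± 0.16 and -0.83 ± 0.19 (edgeR adjusted p = 0.000268, 0.000497 and 0.00866). The other 7 genes lay between -0.48 (*sbp-1*) and 0.37 (*fat-5*) and did not pass the test. That made 3 of 10 lower and 0 higher, beside 17.2% of 14900 genes lower, 12.6% higher and 29.8% in either direction, and the members' median was -0.30 beside 0.07 over all genes. *fat-2* and *fat-1* thus led total RNA per kb and fell behind *elo-1* and *fat-6* in polysomes.

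With *xpo-1* RNAi 6 genes were lower in polysome than in total RNA and 1 was higher, beside 17.6% and 14.6% of 14900 genes and 32.1% in either direction, with a members' median of -0.93 beside 0.04. *fat-2* reached -3.03 ± 0.19 and *fat-1* -2.20 ± 0.16 on the log2 scale (edgeR adjusted p = 0.000113 and 0.000154). *fat-4* stood at -1.78 ± 0.19 and *elo-1* at -1.42 ± 0.21 (edgeR adjusted p = 0.000539 and 0.00136). *fat-3* had -1.19 ± 0.18 and *elo-2* -0.67 ± 0.20 (edgeR adjusted p = 0.00151 and 0.0255). The gene higher in polysomes was *fat-5*, at 0.77 ± 0.25 (edgeR adjusted p = 0.0403), a call that was lost when any of the 4 *xpo-1* RNAi libraries was left out. The *elo-2* call was lost without either *xpo-1* RNAi total library or *xpo-1* RNAi polysome replicate 1, with scaling by total counts alone and with 10 counts required in every library. *fat-6*, *fat-7* and *sbp-1* were not called, at -0.35, -0.49 and 0.24.

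**Figure D4:**
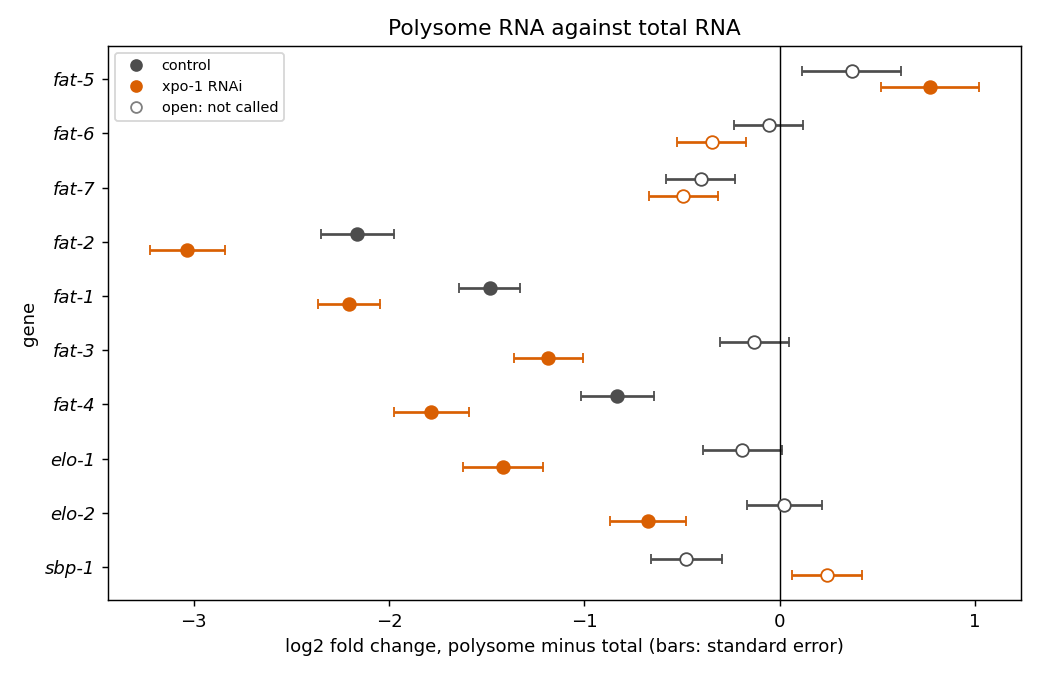
Log2 difference of polysome minus total RNA for each gene, in control (grey) and *xpo-1* RNAi worms (orange), from edgeR, with bars of 1 standard error. Filled points passed the test. The orange point lies to the left of the grey one for *fat-1* to *fat-4*, *elo-1* and *elo-2*, most of all for *elo-1* (-1.42 against -0.19) and *fat-3* (-1.19 against -0.13). It also lies to the left, by less, for *fat-6* (-0.35 against -0.06) and *fat-7* (-0.49 against -0.41), and to the right for *fat-5* and *sbp-1*.

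Whether the *xpo-1* RNAi difference itself changed from total to polysome RNA was tested as an interaction, in which a negative value means a lower log2 difference in polysomes. The values were -1.23 ± 0.29 for *elo-1*, -1.06 ± 0.25 for *fat-3*, -0.95 ± 0.26 for *fat-4*, -0.87 ± 0.25 for *fat-2* and -0.72 ± 0.22 for *fat-1*. They were 0.72 ± 0.26 for *sbp-1* and -0.70 ± 0.27 for *elo-2*, and the monounsaturated desaturases had 0.40 ± 0.35 (*fat-5*), -0.29 ± 0.25 (*fat-6*) and -0.09 ± 0.25 (*fat-7*). edgeR called none of them (0 of 10, beside 0.00% of all 14900 genes), with adjusted p from 0.0986 for *elo-1* to 0.916 for *fat-7*. At an unadjusted p under 0.05 there were 7 of 10 members, beside 16.1% of all genes, and the members' median was -0.71 beside 0.02. DESeq2 called 5 (*fat-1*, *fat-2*, *fat-3*, *fat-4* and *elo-1*, all lower) with adjusted p from 0.00226 to 0.0395, beside 4.63% of all genes. edgeR without control polysome replicate 1 called 4 (*fat-2*, *fat-3*, *fat-4* and *elo-1*), beside 4.87%. With a replicate block edgeR called 6 (*sbp-1* higher, and *fat-2*, *fat-3*, *fat-4*, *elo-1* and *elo-2* lower), beside 13.2% of all genes, and with no count filter 2 (*fat-3* and *elo-1*), beside 2.53%. Whether these genes passed the interaction test thus depended on the tool, the count filter, the pairing of replicates and that library.

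Monosome RNA had a single *xpo-1* RNAi library, so its differences have no replicate check. *fat-5* stood at 49 and 33.7 CPM in the control monosome libraries and at 102 CPM with *xpo-1* RNAi, *fat-6* at 195 and 166 against 426 CPM, and *fat-7* at 16.8 and 10.3 against 27.8 CPM. *fat-2* had 333 and 283 CPM in control and 683 CPM with *xpo-1* RNAi, which was 2.22 times the control mean, close to its ratio of 2.18 in total RNA and above the 1.20 in polysome RNA. *elo-2* was lower, at 59.0 CPM against 66.5 and 83.6 CPM, and the *fat-4* value of 213 CPM lay between the control values of 216 and 179.5 CPM. Between the control fractions, *fat-1* and *fat-2* were lower in polysomes than in monosomes by log2 differences of -1.86 ± 0.35 and -1.35 ± 0.30, and *fat-5* was higher by 1.26 ± 0.36 (edgeR adjusted p = 0.00716, 0.0121 and 0.0305). These were 2 of 10 members lower and 1 higher, beside 18.3% and 14.7% of 14510 genes and 33.0% in either direction. With a library left out, *fat-1* ran from -2.24 to -1.23, *fat-2* from -1.54 to -1.07 and *fat-5* from 0.87 to 1.70. The *fat-2* and *fat-5* calls did not hold in every such case.

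Translation efficiency, the log2 of the polysome to monosome ratio with *xpo-1* RNAi over that in control, was below the median of all genes (-0.02 over 13808 genes) for 8 members. The lowest was *elo-1* at -1.38, which is percentile 9.78 of all genes, followed by *elo-2* at -1.04 (percentile 15.1) and *fat-2* at -0.98 (percentile 16.3). *fat-1*, *fat-6*, *fat-4*, *fat-3* and *fat-7* ran from -0.71 to -0.41. *sbp-1* at 0.45 (percentile 74.5) and *fat-5* at 0.31 (percentile 67.5) lay above the median. *fat-6*, at -0.66, thus had a higher polysome level with *xpo-1* RNAi together with a polysome to monosome ratio below control, and its value ran from -0.86 to -0.48 when a library was left out. *fat-7* ran from -0.85 without control monosome replicate 1 to -0.08 without replicate 2, *fat-1* from -1.22 to -0.33 and *fat-5* from -0.02 to 0.68. These values thus moved with single libraries. The value of every member also rests on the single *xpo-1* RNAi monosome library, which could not be left out. The ranges hold none of its spread, so no translation efficiency here has a full replicate check.

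Genes that act around the desaturases were read from lists of the pathway, against the shares of all genes called in each kind given above. Of 13 tested genes of fatty acid synthesis and elongation, 1 was called in total RNA (*elo-9*, lower, -1.42 ± 0.33). In polysome RNA 3 were higher, *acly-2* (1.51 ± 0.23) and *acly-1* (1.09 ± 0.22), which supply acetyl-CoA, and *pod-2* (0.99 ± 0.21), the acetyl-CoA carboxylase, whose polysome level was 354 to 489.9 CPM in control and 786 to 966 CPM with *xpo-1* RNAi. In the same fraction 4 were lower, *elo-5* (-1.42 ± 0.27) and *elo-4* (-1.30 ± 0.40), further elongases, and *hpo-8* (-1.12 ± 0.22) and *let-767* (-0.94 ± 0.19), a dehydratase and a reductase of the elongation cycle. *elo-4* was a low-level gene, at 2.24 to 3.16 CPM in control polysomes and 1.13 to 1.17 CPM with *xpo-1* RNAi. Of 3 genes that pass electrons to desaturases, the cytochrome gene *cytb-5.2* was lower in polysomes, from 84.7 to 101 CPM in control to 42.0 to 42.2 CPM (edgeR adjusted p = 0.0027), and the others were not called in either kind. Among the genes called in polysome RNA, those that supply or carboxylate acetyl-CoA were thus higher and those of elongation lower. These counts stand beside 15.5% of all genes called higher and 22.4% called lower. The other tested genes of synthesis and elongation, further elongases among them, were not called in polysome RNA, and no pattern of the list as a whole was tested.

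Of 12 regulators of desaturase genes, 4 were higher in polysome RNA (median log2 difference 0.54). In total RNA edgeR and DESeq2 called 0 of them (median 0.24), and 4 had an unadjusted p under 0.05 by each tool, all with higher levels, beside 42.5% of all genes by edgeR. *nhr-49*, a nuclear receptor that activates *fat-7* and genes of fatty acid oxidation, had 34.5 to 46.1 CPM in control polysomes and 87.9 to 94.7 CPM with *xpo-1* RNAi (1.11 ± 0.22, edgeR adjusted p = 0.0049). *aak-2*, a catalytic subunit of AMP-activated kinase, reached 1.24 ± 0.22, *paqr-1*, related to adiponectin receptors, 0.91 ± 0.24, and the nuclear receptor *nhr-80* 0.87 ± 0.25. In total RNA *nhr-49* also lay apart, at 60.5 to 60.6 CPM in control and 81.8 to 95.7 CPM with *xpo-1* RNAi (0.53 ± 0.16, edgeR adjusted p = 0.0325), which passed on its p but fell short of the 1.5-fold limit and so was not called. The same held for *acdh-11*, at 64.1 to 69.9 CPM in control and 100 to 103 CPM with *xpo-1* RNAi (0.58 ± 0.16, edgeR adjusted p = 0.0195).

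Phosphatidylcholine synthesis, whose shortage is known to activate SBP-1 in worms, had 3 of 7 genes lower in total RNA. Whether these levels bear on SBP-1 or the desaturases here was not tested. *sams-1*, which makes the methyl donor for that path, dropped from 139.5 to 245 CPM in control to 19.7 to 24.2 CPM, a log2 fold change of -3.15 ± 0.27 (edgeR adjusted p = 8.27e-05). The methyltransferase *pmt-2* (-1.33 ± 0.22) and *cept-1* (-0.81 ± 0.24) were the others. *pmt-1*, also a methyltransferase, went the other way, from 191 to 203 CPM in control to 291 to 293 CPM. Its log2 difference of 0.55 ± 0.16 (edgeR adjusted p = 0.027) fell short of the 1.5-fold limit. In polysome RNA *sams-1* (-2.28 ± 0.23) and *pmt-2* (-1.78 ± 0.24) were lower and *lpin-1*, a phosphatidate phosphatase, was higher (0.81 ± 0.21).

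Of 15 genes of fatty acid binding and activation, 2 were higher and 5 lower in total RNA, and 4 were higher and 6 lower in polysome RNA. The acyl-CoA synthetase *acs-22* rose by 0.87 ± 0.19 in total and 1.57 ± 0.21 in polysome RNA, and the fatty acid binding protein *lbp-2* by 0.70 ± 0.16 and 0.70 ± 0.16, while *acs-1* (1.04 ± 0.20) and *acs-5* (0.64 ± 0.20) were called in polysomes and not in total RNA. The acyl-CoA binding proteins *acbp-1* (-1.16 ± 0.20 and -2.13 ± 0.25) and *acbp-3* (-1.88 ± 0.29 and -1.84 ± 0.29) were lower in both kinds, as were *lbp-1*, *lbp-8* and *lbp-9*, and *lbp-4* was lower in polysomes. *lbp-8* was a low-level gene, with at most 1.13 CPM in total RNA and 1.96 CPM in polysome RNA. Fatty acid oxidation had 4 of 15 genes higher and 4 lower, the same genes in each kind. *acs-2*, a mitochondrial acyl-CoA synthetase, went from 26.8 to 61.9 CPM in control total RNA to 125 to 133 CPM (1.52 ± 0.31 in total and 2.20 ± 0.26 in polysome RNA). *cpt-1*, the carnitine palmitoyltransferase, rose by 0.74 ± 0.17 and 1.48 ± 0.25, *hacd-1* by 0.78 ± 0.17 and 1.11 ± 0.22 and *ech-9* by 2.63 ± 0.59 and 2.41 ± 0.44. The *ech-9* changes rest on low levels, in total RNA 0.11 to 0.44 CPM in control and 1.53 to 1.85 CPM with *xpo-1* RNAi. In polysomes *ech-9* had 0.60 to 0.87 CPM in control and 3.14 to 5.09 CPM with *xpo-1* RNAi. The acyl-CoA dehydrogenases *acdh-1* (-2.42 ± 0.22 and -2.62 ± 0.24) and *acdh-2* (-3.53 ± 0.30 and -3.57 ± 0.31), the hydratase *ech-6* and the thiolase *kat-1* were lower. Of 3 genes of fat storage and release, *dgat-2*, which makes triglyceride, and the lipase *atgl-1* were higher in polysome RNA by 1.14 ± 0.24 and 1.08 ± 0.23. In total RNA 0 of the 3 were called by either tool, and 0 had an unadjusted p under 0.05. In the interaction test edgeR called 0 of the 69 genes of these lists, beside 0.00% of all 14900 genes. An unadjusted p under 0.05 was reached by 27 of the 69 in edgeR, beside 16.1% of all genes. DESeq2 called 9, beside 4.63% of all genes. A call in polysome RNA and not in total RNA thus does not by itself show a difference between the kinds.

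Across the 11 libraries, which fall into 6 groups that share lysates, the log2(CPM + 1) values of the members were compared as a description. *fat-1* and *fat-4* had a Pearson correlation of 0.936, and the 6 pairs among *fat-1* to *fat-4* ran from 0.684 to 0.936. The 3 pairs among *fat-5*, *fat-6* and *fat-7* ran from 0.678 to 0.896, with *fat-6* and *fat-7* at the top. The 12 pairs between these sets ran from -0.417 (*fat-1* and *fat-5*) to 0.661. Among 7313 genes with a mean of at least 10 CPM, members left out, the patterns most like *fat-5* were those of *ttr-45* (0.988), *lro-1* (0.985) and *hex-1* (0.985). For *fat-6* they were *T25B9.9* (0.959), *ipgm-1* (0.956) and *pqn-83* (0.948), and for *fat-7* *cars-1* (0.946), *R12E2.11* (0.944) and *atg-4.1* (0.939).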

How the data were processed

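The authors deposited raw counts of reads per gene for each of the 11 libraries, as whole numbers with exon coordinates. Per the submitters' processing notes, Trimmomatic, STAR and featureCounts (Subread) were used with the WBcel235 build. Versions, the use of strand and the treatment of reads that match several genes are not given in the sources used here. The deposited tables of normalized signal, made by the authors with DESeq2, were not used (0 columns were left without a library). Symbols were matched for 43798 of 46756 gene identifiers.

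Counts were tested with edgeR 4.0.16 (R 4.3.3; glmQLFit and glmQLFTest) with TMM scaling, on genes that reached 10 counts in 2 or more of the libraries fitted, with Benjamini-Hochberg adjustment over all genes tested. Calls required a fold change above 1.5 together with an adjusted p below 0.05. Total and polysome RNA were each fitted alone, and the interaction and the polysome to total contrasts in 1 fit of 8 libraries. The 3 contrasts of that fit, and those of each kind, share libraries. Standard errors were the log2 fold change over the square root of F. Translation efficiency used a pseudocount of 1. Errors are SE, with 2 libraries a group, and a counting floor was not needed for the members, as every member was detected in each library.

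The study's methods call replicates biological duplicates, and p-values measure the spread between these libraries. Replicates differed far beyond counting noise (chi-square over degrees of freedom 12.2 to 58.0), so none was merged. Library totals of 15589628 to 21828657 counts leave counting error small beside that spread. The members, gene lists and tests were chosen with earlier results of these data known. The text names all 10 members, *xpo-1*, the list genes called in total or polysome RNA, the uncalled *pmt-1* and *acdh-11*, and the 3 genes most correlated with each of *fat-5*, *fat-6* and *fat-7*. Scripts were tested on simulated data. Alternatives were other scalings, DESeq2 1.42.0, other filters, a replicate block and leaving out each library. Group names and replicate numbers follow the labels. Sequences are not shown, since no sequence table was used here.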

Additional observations from a re-analysis of the deposited data

How the results depend on the processing

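Of the members' log2 fold changes under the alternatives, 711 kept direction and side of the threshold, 34 lost a call, 32 gained one and 33 changed sign. *fat-5* was higher in total and polysome RNA under every alternative, and *fat-2* and *fat-6* were higher in total RNA under every one. When a library was left out, the members called numbered 3 to 6 (total RNA), 1 to 5 (polysome RNA) and 0 to 4 (interaction). They ran from 3 to 4 for control polysome minus total RNA, 5 to 7 for the same with *xpo-1* RNAi and 2 to 3 for control polysome minus monosome RNA. For the interaction DESeq2 called 5 members and edgeR with no count filter 2 (*fat-3* and *elo-1*). The cause was not tested.

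The labels do not say that replicate numbers mark a shared lysate or day. Same-numbered control libraries deviated together (correlation 0.776 between total and polysome RNA and 0.535 between monosome and polysome RNA), but *xpo-1* RNAi total and polysome RNA did not (-0.341), nor did the treatments in total (0.0646) or polysome RNA (0.04), so the numbers were not taken to pair the libraries. With a replicate block the interaction called 6 members (*sbp-1* higher, and *fat-2*, *fat-3*, *fat-4*, *elo-1* and *elo-2* lower), beside 13.2% of all genes. The block called 6 in total RNA, beside 33.7% of all genes, and 5 in polysome RNA, beside 43.6%. With *xpo-1* RNAi numbers crossed, an alternative chosen after seeing the data, the block called 7, beside 20.0%.

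Signs changed as follows. In total RNA *sbp-1* was 0.0021 with TMM over all libraries, 0.28 with total counts only and 0.0015 with no filter, and ran from -0.13 to 0.027 with a library left out, as *elo-1* did from -0.048 to 0.23. In polysome RNA *fat-1* was 0.12 and *fat-3* 0.14 with total counts only, and *fat-2* ran from -0.094 to 0.39 with a library left out. For the interaction *fat-7* was 0.048 with 10 counts in every library, and with a library left out *fat-7* ran from -0.23 to 0.22 and *fat-6* from -0.47 to 0.12. For control polysome minus total RNA, *fat-3* was 0.0081 and *fat-6* 0.084 with total counts only and *elo-2* -0.020 with 10 counts in every library. With a library left out, *fat-3* ran from -0.29 to 0.052, *fat-5* ran from -0.011 to 0.67, *fat-6* ran from -0.17 to 0.055, *elo-1* ran from -0.46 to 0.042, *elo-2* ran from -0.16 to 0.23. For control polysome minus monosome RNA *fat-7* was 0.058 with TMM over all libraries and 0.0064 with the replicate block, and with a library left out *fat-3* ran from -0.22 to 0.053, *fat-7* ran from -0.37 to 0.52.

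The precision is limited by 2 libraries a group and 1 *xpo-1* RNAi monosome library, not by depth. *fat-7* and *sbp-1*, the lowest members, had at least 10 CPM in every library. The interaction value of *fat-3* ran from -1.24 to -0.71 with a library left out.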
